A study of Mus musculus with 9 samples.

Results

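Interferon-stimulated genes are the genes that a cell turns on when an interferon, a cytokine released on infection, binds its receptor. Here 41 of them were taken by symbol from a list of such genes, chosen with earlier results of these data known. All 41 are among the 16537 genes of the deposited table, where they hold 52 of its 21388 transcripts. Of these, 40 passed the filter on low counts and were tested with 12837 genes in all. Ifit3 did not pass and is given by its level only.

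The libraries are 9 in number, 3 for each of 3 cell populations sorted from the bone marrow of FVB/NJ mice, which are inbred. Median LP and early LP are Leukemic Progenitors from animals of the PML-RAR genotype, labelled as median phase and early phase, and HPC are the hematopoietic progenitors of wild-type animals aged 42 postnatal days. PML-RAR names the fusion of promyelocytic leukemia protein with a retinoic acid receptor that is found in acute promyelocytic leukemia. The labels give no promoter for it, no age for the LP mice and no sorting markers. They also do not tell whether a group's libraries stem from different animals, so p-values measure the spread between libraries, which may be technical. The libraries held 21.9 to 25.8 M deposited estimated counts, or 20.6 to 28.4 M recovered fragments (M, 1e6).

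Type I interferons bind a receptor made of Ifnar1 and Ifnar2, and the kinases attached to it activate Stat2, among others. Stat2 joins Irf9 in a complex that binds a short DNA element, the interferon-stimulated response element (ISRE), before many of the genes described here. Interferon gamma acts through another element, the gamma-activated site (GAS). The products bind or cut foreign RNA, hold back viral entry and release, and tag proteins with the small modifier Isg15. In bone marrow, interferons are known to act on blood stem cells, and Pml is itself interferon-stimulated.

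The promoters are shown first because 16 of the 32 members with an entry in the RefSeq promoter table (GRCm38.p6) hold the ISRE core. The window runs from 250 bases before to 50 bases after the start of the transcript, and the core was searched on both strands as GAAA, any 2 bases and GAAA again, which reads as TTTC, 2 bases and TTTC on the other strand. It is found in 3.99% of the 27025 genes of the promoter table and in 3.66% of the 10261 of them that were tested. The GAS core, TTCNNNGAA, is found in 11 of the 32 members and in 9.55% of the genes of the promoter table, 4 members hold both, and the 2 motifs can overlap. The first sequence is the upstream part of the window of Cxcl10, the member with the largest increase (GRCm38.p6, chr5:92348890-92349139, minus strand), with the core in capitals.
Cxcl10: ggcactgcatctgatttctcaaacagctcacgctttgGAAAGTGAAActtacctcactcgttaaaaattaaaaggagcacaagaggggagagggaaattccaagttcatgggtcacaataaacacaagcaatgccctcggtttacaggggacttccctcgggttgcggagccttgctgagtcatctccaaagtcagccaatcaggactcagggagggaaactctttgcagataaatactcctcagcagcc
The core begins 213 bases before the start of the transcript. The next sites are those of the other 2 members that differed between median and early LP and of 3 members that were higher in both LP groups, each with 10 bases on either side of the capitals.
Rsad2: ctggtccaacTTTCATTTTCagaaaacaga
Ifit1: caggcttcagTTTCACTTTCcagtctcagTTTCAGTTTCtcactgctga
Isg15: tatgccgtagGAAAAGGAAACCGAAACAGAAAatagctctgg
Gbp3: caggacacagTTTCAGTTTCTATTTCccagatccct
Bst2: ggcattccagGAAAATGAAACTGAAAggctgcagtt
The Rsad2 site (chr12:26456553-26456582, minus strand) holds 1 core and that of Ifit1 (chr19:34640775-34640823, plus strand) holds 2 separate ones. The cores overlap in Isg15 (chr4:156200865-156200906, minus strand), Gbp3 (chr3:142559989-142560024, plus strand) and Bst2 (chr8:71537577-71537612, minus strand), with 3, 2 and 2 of them. These are matches of letters and not measured binding.

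The members did not move as a block. In median LP against HPC, 18 of 40 were higher, 13 lower and 9 not called, where 73.8% of all genes were called (edgeR quasi-likelihood test, Benjamini-Hochberg adjusted p under 0.05 over all genes). Of all genes 36.0% were higher and 37.7% lower, so the share of members called lay near that background. In early LP against HPC, 16 were higher, 16 lower and 8 not called, where 73.2% of all genes were called, 35.3% higher and 37.9% lower. With scaling by library totals in place of TMM, the early LP split was 10 higher and 19 lower, and the median of all genes moved to -0.17 in median LP and -0.22 in early LP. The median log2 change of the members was 0.16 in median LP and -0.02 in early LP, against -0.04 for all genes in both. Both comparisons use the same HPC libraries. The 3 LP libraries lay wholly above the 3 HPC libraries for 18 members and wholly below for 12 in median LP, where 36.8% and 39.0% of all genes did so, 75.7% together. In early LP they did so for 16 and 16, against 36.3% and 38.4% of all genes, 74.7% together. With a change of at least 2-fold required as well, 9 members were higher and 9 lower in median LP (all genes 16.2% and 14.5%), and 6 were higher and 13 lower in early LP (15.6% and 14.2%).

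In both LP groups 15 of 40 members were higher, a pattern of 32.9% of all genes. These members are the receptor chains and Stat2, the sensors Ifih1, Ddx58 and Dhx58, Ifit1, Ifit2, Bst2, Ifitm3, Isg15, Gbp3, Parp12, Parp14 and Cxcl10. The 13 members lower in both, a pattern of 34.5% of all genes, are Oasl1, Oasl2, Isg20, Samhd1, Cmpk2, Mx1, Mx2, Usp18, Irgm1, Ifi47, Ifi44, Rtp4 and Lgals3bp. Rsad2 was higher in median LP and lower in early LP, which 10 of the 12837 genes were. Oas2 and Parp9 were called higher in median LP and not called in early LP. Gbp2 was called higher, and Oas3 and Trim25 lower, in early LP and not in median LP. For Oas2, Gbp2, Oas3 and Trim25, the group not called here was called under some alternatives, which are given below. Zbp1, Eif2ak2, Adar, Igtp, Ifi35 and Xaf1 were called in neither.

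**Figure D1:**
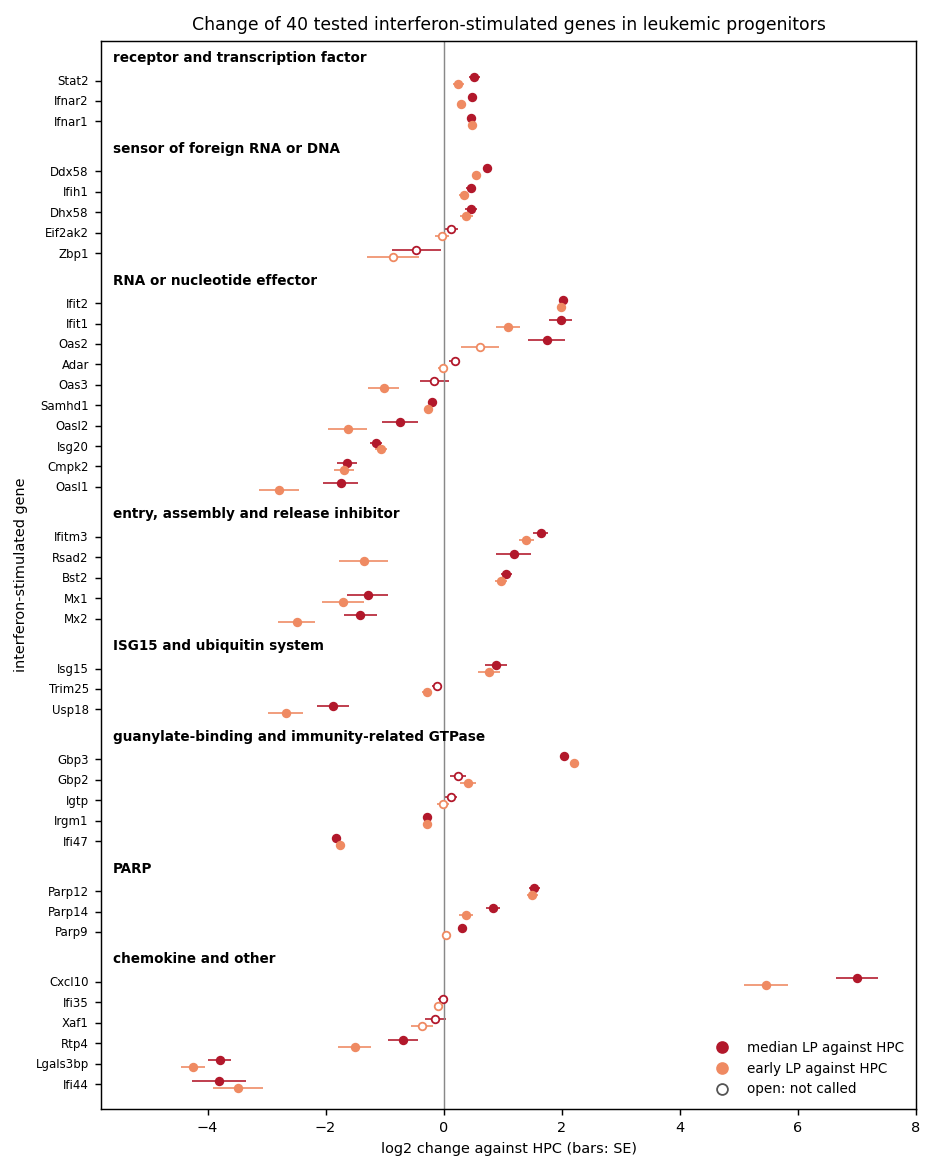
Log2 change (horizontal axis) of the 40 tested members in median LP (dark red, upper) and early LP (orange, lower) against HPC, grouped by role, with bars of 1 SE. Filled points passed an adjusted p under 0.05. Cxcl10 lies far to the right at 7.0 and 5.46, and Lgals3bp and Ifi44 lie to the left at -3.8 and -3.81 in median LP.

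Levels differed widely between members. In FPKM, fragments per kilobase of transcript scaled for depth, the scale that allows genes of different length to be compared, Ifitm3 had the highest level of all members in each group, at 198 ± 12.4 FPKM in median LP, 173 ± 20.9 in early LP and 66.4 ± 12 in HPC (SD, n = 3 in each). Bst2 came next in both LP groups, at 96.8 ± 5.41 and 93.3 ± 11.8 FPKM, against 47.9 ± 6.97 in HPC. Cxcl10 was the third in median LP at 80.0 ± 35.3 FPKM, within its spread of Bst2, and the fifth in early LP at 28.1 ± 1.13, but ranked 34 of 41 in HPC at 0.644 ± 0.228. Lgals3bp took the opposite place, ranking 25 in median LP and 26 in early LP at 3.86 ± 1.23 and 2.84 ± 0.507 FPKM, and 2 in HPC at 55.8 ± 7.92. At the low end, Zbp1, Rsad2, Mx1, Mx2, Ifit3 and Ifi44 averaged at most 0.569 FPKM in every group. All other levels are CPM, counts scaled to the same library size with TMM, which compare 1 gene between libraries.

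The receptor chains and Stat2 were all 3 higher in both LP groups, where 36.0% and 35.3% of all genes were higher in median and early LP. Ifnar1 (GRCm38.p6, chromosome 16, 91485032 to 91510523), the chain that holds the kinase Tyk2, stood at 78.0, 78.5 and 83.2 CPM in the median LP libraries and 83.7, 84.3 and 75.7 in early LP, against 58.0, 61.9 and 54.1 in HPC. Its log2 change was 0.46 (SE 0.07, adjusted p = 8.30e-05) in median LP and 0.49 (SE 0.07, adjusted p = 5.58e-05) in early LP by edgeR, and every LP library lay above every HPC library. Ifnar2 (chromosome 16, 91372783 to 91405589), the chain that binds interferon first, stood at 108, 99.5 and 102 CPM in median LP and 87.6, 95.9 and 90.5 in early LP, against 71.3, 72.5 and 78.8 in HPC. It changed by 0.47 (SE 0.07) and 0.30 (SE 0.07), again with no overlap, and its early LP call ended with scaling by library totals (0.12, adjusted p = 0.119 by edgeR). Stat2 (chromosome 10, 128270498 to 128292853) stood at 51.9, 57.1 and 69.0 CPM in median LP and 52.1, 47.5 and 48.0 in early LP, against 43.1, 40.9 and 40.1 in HPC. Its change was 0.52 (SE 0.09, adjusted p = 0.000341) in median LP. In early LP it was 0.25 (SE 0.09, adjusted p = 0.0315), a call that ended without early LP 1 (adjusted p = 0.0966) or without HPC 3 (adjusted p = 0.0699) in edgeR. It also ended with scaling by library totals (0.07, adjusted p = 0.522) or upper quartiles (adjusted p = 0.0901) in edgeR and in both limma fits to log2 FPKM (adjusted p = 0.0580 and 0.0625).

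Among the other genes of the signalling path, a list of 12 tested receptors, kinases and transcription factors had 4 members higher and 6 lower in each LP group, where 36.0% and 37.7% of all genes were higher and lower in median LP and 35.3% and 37.9% in early LP. Irf9, the DNA-binding subunit of the complex with Stat2, averaged 19.7 ± 4.67 CPM in median LP, 18.5 ± 0.672 in early LP and 41.9 ± 2.11 in HPC, and fell by 1.09 (SE 0.13) and by 1.18 (SE 0.13). Jak2, a kinase of the interferon gamma receptor, had log2 changes of -0.49 (SE 0.06) and -0.61 (SE 0.06). Il10rb, a chain shared by the receptors of interleukin 10 and lambda interferons, fell by 0.73 (SE 0.08) and by 0.87 (SE 0.08). Among the higher ones, named after their values had been seen, Ifngr1, the chain that binds interferon gamma, averaged 443 ± 57.4 CPM in median LP, 392 ± 11.7 in early LP and 259 ± 11.1 in HPC, a change of 0.77 (SE 0.09) and 0.60 (SE 0.09). The kinases Jak1, with 0.27 (SE 0.06) and 0.17 (SE 0.06), and Tyk2, with 0.20 (SE 0.07) and 0.25 (SE 0.07), were also called higher, and Jak1 shares its locus in the table with Raver2. Of 21 interferon genes, 2 are listed in the table, and neither was tested. Ifnz held 12, 10 and 11 fragments in median LP, early LP and HPC over 3 libraries each, and Ifnab 0, 1 and 2.

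Genes that restrain the path were called higher in 7 of 16 cases and lower in 5 in median LP, and in 8 and 5 in early LP (all genes 36.0% and 37.7%, and 35.3% and 37.9%). The suppressor Socs1, which blocks the receptor's kinases, stood at 6.99 ± 1.15 CPM in median LP, 6.51 ± 0.826 in early LP and 0.841 ± 0.156 in HPC, a change of 3.04 (SE 0.20) and 2.94 (SE 0.20). Socs3, its relative best known for restraining Stat3, stood at 10.1 ± 0.846, 6.24 ± 0.332 and 1.48 ± 0.413 CPM in the same order, a change of 2.77 (SE 0.18) and 2.07 (SE 0.18). Socs3 was also higher in median than in early LP, by 0.70 (SE 0.15, adjusted p = 0.0341 by edgeR). Ptpn1, a phosphatase acting on Jak2 and Tyk2, changed by 1.11 (SE 0.07) and 1.03 (SE 0.07). The corepressor Irf2bp2 changed by 1.34 (SE 0.09) and 1.22 (SE 0.09), and lies on chromosome 8, whose tested genes had a median log2 change of 0.51 in median LP and 0.53 in early LP. Called lower in both LP groups were Trex1, Trim24, Irf2bp1 and Otud5, named after their values had been seen. Trex1, a nuclease that clears DNA from the cytosol, averaged 5.43 ± 0.172 CPM in median LP, 4.90 ± 0.772 in early LP and 9.47 ± 1.57 in HPC, and fell by 0.80 (SE 0.15) and by 0.95 (SE 0.15).

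The sensors of foreign nucleic acids were higher in 3 of 5 cases in both LP groups and lower in none, where 36.0% and 35.3% of all genes were higher. With scaling by library totals, 1 of the 5 was still higher in early LP, since Ifih1 (adjusted p = 0.131) and Dhx58 (adjusted p = 0.106) were no longer called by edgeR. Ddx58, known as RIG-I, averaged 32.0 ± 1.22 CPM in median LP, 28.2 ± 1.08 in early LP and 19.3 ± 1.05 in HPC, a change of 0.73 (SE 0.07) and 0.55 (SE 0.07). Ifih1, known as MDA5, which binds long double-stranded RNA, changed by 0.46 (SE 0.09) and 0.35 (SE 0.09). Dhx58, the regulator of both that is also called LGP2, changed by 0.46 (SE 0.11) and 0.38 (SE 0.11). Eif2ak2, the kinase PKR that halts translation, stood at 48.6 to 64.1 CPM in median LP, 47.7 to 59.3 in early LP and 48.0 to 60.4 in HPC, 3 ranges that overlap. Zbp1, a sensor of left-handed nucleic acid that triggers necroptosis, held 9 to 19 fragments per library in median LP, 6 to 10 in early LP and 8 to 26 in HPC, and was not called. In early LP it was called lower without HPC 2 (-1.16, adjusted p = 0.0217) or with scaling by library totals (-1.04, adjusted p = 0.0464) in edgeR. The table gives Zbp1 a pair of gene identifiers, so its reads may be mixed.

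Upstream of interferon, 9 of 15 further sensors and adaptors were higher and 2 lower in median LP, and 6 and 2 in early LP, against those same shares of all genes. The largest change was that of Tlr7, the endosomal receptor of single-stranded RNA, at 44.2 ± 0.926 CPM in median LP, 38.8 ± 1.98 in early LP and 2.63 ± 0.479 in HPC, or 4.07 (SE 0.11) and 3.88 (SE 0.11) on the log2 scale. Myd88, the adaptor of Tlr7, changed by 0.87 (SE 0.07) and 0.86 (SE 0.07). Of the other adaptors some were higher and some lower. Ticam1, the adaptor of Tlr3, named after its values had been seen, changed by 0.29 (SE 0.11) and 0.41 (SE 0.11). Tmem173, the adaptor STING of DNA sensing, stood at 9.08 ± 0.407 CPM in median LP, 14.0 ± 1.67 in early LP and 39.8 ± 2.0 in HPC, fell by 2.13 (SE 0.10) and by 1.5 (SE 0.09), and was lower in median than in early LP by a log2 change of -0.63 (SE 0.10, adjusted p = 0.00797 by edgeR). Mavs, the adaptor through which RIG-I and MDA5 signal, fell by 1.12 (SE 0.08) and by 1.09 (SE 0.08).

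The effectors that act on RNA or nucleotides split within families. Ifit2 (chromosome 19, 34550550 to 34576534), which binds foreign RNA and limits its translation, stood at 98.8, 95.3 and 100 CPM in median LP and 98.2, 92.6 and 94.6 in early LP, against 25.6, 24.0 and 22.4 in HPC. The 6 LP libraries lay close together and far above HPC, with a change of 2.03 (SE 0.07, adjusted p = 1.12e-10) and 1.99 (SE 0.07, adjusted p = 1.47e-10) by edgeR. Its neighbour Ifit1 (chromosome 19, 34640889 to 34650009), which recognises the caps of foreign RNA, was far lower in level, at 3.35, 3.60 and 3.60 CPM in median LP and 2.31, 1.71 and 1.67 in early LP, against 0.923, 0.837 and 0.897 in HPC. The 3 groups were separate, and Ifit1 changed by 1.98 (SE 0.20) and 1.09 (SE 0.21). Ifit3, which stabilises the Ifit1 protein, held 24 fragments over the 3 median LP libraries, 19 over early LP and 10 over HPC.

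The oligoadenylate synthetases, which make a signal that switches on RNase L, did not share a direction. Oas2 (chromosome 5, 120730333 to 120749886) stood at 7.94, 12.7 and 21.6 CPM in median LP and 7.10, 6.90 and 5.25 in early LP, against 5.28, 3.94 and 3.35 in HPC. It rose in median LP by 1.75 (SE 0.32, adjusted p = 0.000330 by edgeR), with median LP 3 the highest library, and its early LP change of 0.62 (SE 0.33) had an adjusted p of 0.111. In edgeR that early LP change was called with early LP and HPC alone in the fit (adjusted p = 0.0191). It was also called without median LP 1 (adjusted p = 0.0376) or median LP 3 (adjusted p = 0.0270). Oas3 stood at 2.48 to 5.49 CPM in median LP, 1.92 to 2.47 in early LP and 3.9 to 4.66 in HPC, and fell by 1.01 (SE 0.26) in early LP. Without median LP 3, Oas3 was called lower in median LP as well (-0.53, adjusted p = 0.0369 by edgeR). Oasl2 (chromosome 5, 114896926 to 114912245), an active relative, stood at 1.86, 3.96 and 5.80 CPM in median LP and 1.74, 2.68 and 1.83 in early LP, against 7.21, 5.61 and 6.55 in HPC. It fell by 1.63 (SE 0.33, adjusted p = 0.000772) in early LP. In median LP it fell by 0.74 (SE 0.31, adjusted p = 0.0454), the groups overlapped, and the call ended without median LP 1, median LP 2, early LP 1, early LP 2, HPC 1 or HPC 3 (adjusted p 0.0512 to 0.128). Oasl1, which in mice holds back the translation of Irf7, fell by 1.75 (SE 0.30) and by 2.79 (SE 0.33), on 12 to 24 fragments per library in median LP, 6 to 9 in early LP and 45 to 87 in HPC. The table gives the Oasl2 row a pair of gene identifiers, 1 of them of another synthetase, so its reads may be mixed.

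The nucleases and nucleotide enzymes were lower or not called. Cmpk2 (chromosome 12, 26469117 to 26479837), a mitochondrial nucleotide kinase, stood at 3.52, 4.83 and 5.93 CPM in median LP and 3.96, 4.73 and 5.12 in early LP, against 15.8, 14.6 and 14.1 in HPC. It fell by 1.64 (SE 0.17, adjusted p = 2.75e-06) and by 1.68 (SE 0.17, adjusted p = 2.23e-06) by edgeR. Isg20 (chromosome 7, 78913396 to 78920396), an exonuclease for single-stranded RNA, stood at 7.28, 6.99 and 8.0 CPM in median LP and 8.36, 7.65 and 7.75 in early LP, against 15.6, 15.7 and 18.1 in HPC, and fell by 1.15 (SE 0.10) and by 1.06 (SE 0.10). In both genes the LP groups overlapped each other and lay below HPC. Samhd1 (chromosome 2, 157097534 to 157135096), which breaks down deoxynucleotides, stood at 82.6, 86.5 and 82.5 CPM in median LP and 82.8, 80.1 and 79.6 in early LP, against 103, 96.0 and 91.1 in HPC. Its falls were small, by 0.20 (SE 0.06) and by 0.26 (SE 0.06), and the median LP call ended without HPC 1 (adjusted p = 0.0779). Adar, which edits adenosine in double-stranded RNA, averaged 99.7 ± 11.5 CPM in median LP, 86.7 ± 5.54 in early LP and 87.5 ± 6.11 in HPC.

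Of 9 tested members with more than 1 transcript, 3 had a transcript whose share did not overlap between HPC and either LP group, where 22.9% of 2777 genes with more than 1 transcript had one. These 3, Adar, Ifnar2 and Isg20, are described because of those values, with no test. The short form of 930 residues took 37.6, 40.6 and 37.1% of the estimated counts of Adar in median LP and 44.4, 40.7 and 40.4% in early LP, against 27.8, 23.4 and 25.9% in HPC. The long form of 1152 residues, which starts at an interferon-inducible promoter and carries a domain for left-handed nucleic acid, took 61.6% in median LP, 58.2% in early LP and 73.2% in HPC on average. The short transcript of Ifnar2 encodes a form of 248 residues without the signalling tail, and the long one a form of 513. The short one took 43.6, 47.4 and 40.9% in median LP and 44.4, 44.6 and 49.5% in early LP, against 33.6, 33.5 and 40.9% in HPC. The highest HPC library lies next to the lowest of median LP. A second transcript of Isg20 with another start took 3.64 ± 3.79% in median LP, 1.90 ± 1.79% in early LP and 24.0 ± 3.63% in HPC (SD, n = 3). Shares of transcripts are estimates from reads that the transcripts have in common, and Adar shares its locus in the table with Chrnb2.

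**Figure D2:**
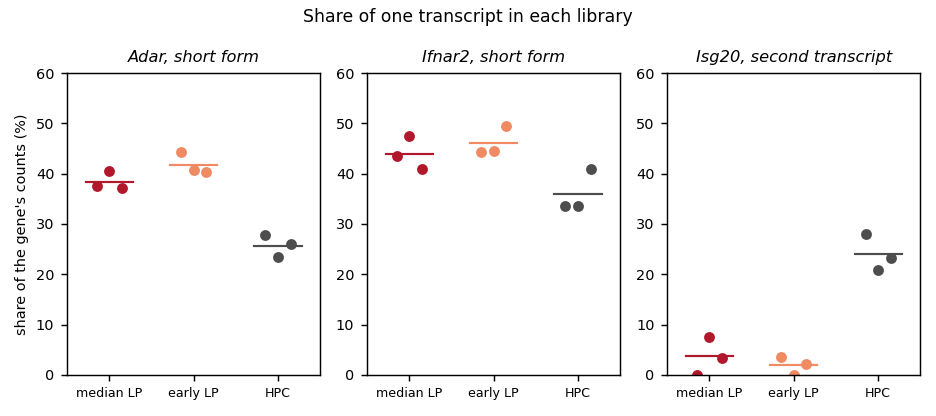
Share of the estimated counts of a gene (vertical axis, percent) taken by the short form of Adar, the short form of Ifnar2 and the second transcript of Isg20 in each library of median LP, early LP and HPC. Points are libraries and lines are group means. The Adar form averages 38.4% in median LP, 41.8% in early LP and 25.7% in HPC.

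Inhibitors of viral entry, assembly and release included both the most abundant member and some of the scarcest. Ifitm3 (chromosome 7, 141009590 to 141010744), which blocks the fusion of viruses in endosomes, stood at 87.3, 87.7 and 102 CPM in median LP and 70.4, 83.8 and 78.8 in early LP, against 26.1, 26.0 and 36.4 in HPC. It changed by 1.64 (SE 0.13, adjusted p = 2.42e-07) and 1.40 (SE 0.13, adjusted p = 1.06e-06) by edgeR, with LP wholly above HPC. Bst2 (chromosome 8, 71534255 to 71537472), tetherin, which holds budding viruses on the cell surface, stood at 72.7, 72.6 and 71.7 CPM in median LP and 60.7, 73.4 and 70.3 in early LP, against 32.4, 31.0 and 40.3 in HPC. It changed by 1.06 (SE 0.10) and 0.98 (SE 0.10), on the chromosome whose genes had medians of 0.51 and 0.53, and the part of the chromosome in this change was not tested.

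Rsad2, viperin, an enzyme that makes a chain-terminating nucleotide, is the member whose direction differed between the LP groups. It lies on chromosome 12, from 26442743 to 26456452, next to Cmpk2. Rsad2 stood at 1.12, 1.63 and 1.27 CPM in median LP and 0.348, 0.251 and 0.0833 in early LP, against 0.587, 0.544 and 0.624 in HPC, so the 3 groups were separate, with HPC between the LP groups. These levels rest on 29 to 37 fragments per library in median LP, 2 to 7 in early LP and 14 to 18 in HPC. Its log2 change was 1.18 (SE 0.30, adjusted p = 0.00396) in median LP and -1.35 (SE 0.41, adjusted p = 0.0110) in early LP by edgeR. Mx1 and Mx2, dynamin-like GTPases whose genes are disrupted in many inbred mouse strains, were lower in both, Mx1 by a log2 change of -1.29 (SE 0.34) and -1.71 (SE 0.36), and Mx2 of -1.41 (SE 0.28) and -2.49 (SE 0.32). Over 3 libraries Mx1 held 26 fragments in median LP, 18 in early LP and 70 in HPC, and Mx2 held 46, 20 and 133.

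In the system of Isg15, the modifier itself was higher while its protease was lower. Isg15 averaged 3.56 ± 0.232 CPM in median LP, 3.26 ± 0.35 in early LP and 1.92 ± 0.359 in HPC (SD, n = 3), a change of 0.89 (SE 0.18) and 0.76 (SE 0.18). Usp18, which removes Isg15 from proteins and also damps the receptor at Ifnar2, averaged 1.26 ± 0.306, 0.717 ± 0.394 and 4.62 ± 0.530 CPM in the same order and fell by 1.88 (SE 0.28) and by 2.68 (SE 0.30). Over 3 libraries each, Usp18 held 92 fragments in median LP, 51 in early LP and 365 in HPC. Trim25 (chromosome 11, 88999403 to 89020294), a ubiquitin ligase that helps RIG-I, stood at 86.1, 96.0 and 103 CPM in median LP and 82.7, 85.1 and 84.5 in early LP, against 106, 110 and 91.8 in HPC. It fell in early LP by 0.29 (SE 0.08, adjusted p = 0.00820), a call that ended without HPC 2 (adjusted p = 0.0544). In median LP Trim25 was called lower by edgeR only with library totals (-0.25, adjusted p = 0.0268), with upper quartiles (adjusted p = 0.0451) or without HPC 3 (adjusted p = 0.0393). Both limma fits to log2 FPKM also called it lower there (adjusted p = 0.0243 and 0.0247).

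The interferon-induced GTPases, which attack the vacuoles of intracellular microbes, also split. Gbp3 (chromosome 3, 142560016 to 142573213) stood at 110, 98.9 and 104 CPM in median LP and 115, 119 and 115 in early LP, against 25.4, 25.3 and 25.3 in HPC. It had the smallest adjusted p of the members, with a change of 2.04 (SE 0.06, adjusted p = 6.15e-11) and 2.20 (SE 0.06, adjusted p = 3.52e-11) by edgeR. Gbp2 rose in early LP by 0.42 (SE 0.13), at 14.7 to 16.8 CPM against 11.1 to 12.9 in HPC, and its range of 12 to 17.2 in median LP overlapped both. Its early LP call ended with scaling by library totals (0.24, adjusted p = 0.124 by edgeR). Without median LP 2, Gbp2 was called higher in median LP (0.36, adjusted p = 0.0388 by edgeR). Ifi47 (chromosome 11, 49076587 to 49096987) was lower, at 16.2, 14.9 and 16.3 CPM in median LP and 16.6, 16.8 and 16.0 in early LP, against 54.2, 53.3 and 59.6 in HPC, and fell by 1.82 (SE 0.07, adjusted p = 7.70e-10) and by 1.76 (SE 0.07, adjusted p = 1.07e-09). The table places it in a locus shared with Tgtp2 and Olfr56. Irgm1 (chromosome 11, 48865245 to 48871420), which keeps the other GTPases off the cell's own membranes, stood at 33.4, 33.1 and 38.2 CPM in median LP and 35.3, 36.5 and 33.4 in early LP, against 43.1, 40.5 and 43.7 in HPC, and fell by 0.28 (SE 0.07) and by 0.27 (SE 0.07). Igtp stood at 16.0 to 19.7, 14.3 to 16.4 and 15.2 to 16.2 CPM in median LP, early LP and HPC.

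The interferon-induced PARP family, enzymes and readers of ADP-ribose, was higher in 3 of 3 cases in median LP and in 2 of 3 in early LP. Among all genes, 36.0% and 35.3% were higher in these groups. Parp12 (chromosome 6, 39086412 to 39118349) stood at 27.4, 29.3 and 31.5 CPM in median LP and 29.7, 28.3 and 27.6 in early LP, against 9.02, 10.4 and 10.9 in HPC, a change of 1.54 (SE 0.09) and 1.5 (SE 0.09). Parp14 (chromosome 16, 35831892 to 35871518) stood at 45.6, 52.8 and 58.6 CPM in median LP and 43.2, 35.8 and 35.2 in early LP, against 30.1, 32.7 and 25.3 in HPC. Its change was 0.83 (SE 0.12, adjusted p = 5.07e-05) in median LP and 0.37 (SE 0.12, adjusted p = 0.0140) in early LP, and the second call ended without early LP 1 (adjusted p = 0.0629) or HPC 3 (adjusted p = 0.0503). The early LP call of Parp14 also ended with scaling by library totals (0.19, adjusted p = 0.179 by edgeR). Parp9, which works with the ligase Dtx3l from a shared locus, rose by 0.31 (SE 0.07) in median LP and stood at 30.5 to 32.5 CPM in early LP, against 29.7 to 31.9 in HPC.

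Cxcl10 (chromosome 5, 92346638 to 92348889), the chemokine that draws T and NK cells through Cxcr3, showed the largest change of all members. It stood at 115, 73.0 and 50.3 CPM in median LP and 26.5, 27.1 and 28.1 in early LP, against 0.713, 0.377 and 0.741 in HPC. All median LP libraries lay above all early LP libraries, which lay far above HPC, and the early LP libraries were close together while those of median LP spread. The log2 change was 7.0 (SE 0.36, adjusted p = 5.68e-09) in median LP and 5.46 (SE 0.37, adjusted p = 7.82e-08) in early LP by edgeR, and the HPC level rests on 9 to 21 fragments per library. Cxcl10 lies within the span of Art3, an ADP-ribosyltransferase gene on the opposite strand, and the use of strand is not given in the sources used here. Art3 stood at 30.2, 29.5 and 33.3 CPM in median LP and 27.9, 28.8 and 26.9 in early LP, against 0.419, 0.167 and 0.195 in HPC, so reads of Art3 and Cxcl10 cannot be told apart where they overlap. The neighbouring chemokines for the same receptor, named after their values had been seen, were higher as well. Cxcl9 averaged 3.89 ± 0.642 CPM in median LP, 2.74 ± 0.268 in early LP and 0.163 ± 0.109 in HPC, and Cxcl11 averaged 1.13 ± 0.551, 0.395 ± 0.105 and 0.0409 ± 0.0419.

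The other members were lower or not called. Lgals3bp (chromosome 11, 118392747 to 118401959), a secreted glycoprotein that binds galectins, stood at 6.17, 8.13 and 12.2 CPM in median LP and 5.44, 6.4 and 7.41 in early LP, against 116, 112 and 139 in HPC. It fell by 3.8 (SE 0.19, adjusted p = 5.46e-09) and by 4.25 (SE 0.20, adjusted p = 2.82e-09) by edgeR. Ifi44, a cytoplasmic protein of unsettled function, fell by 3.81 (SE 0.45) and by 3.48 (SE 0.43), on 7 fragments in median LP and 8 in early LP against 117 in HPC, with a change of -4.41 in median LP without median LP 2. Rtp4, a chaperone of membrane receptors, fell by 0.69 (SE 0.26, adjusted p = 0.0295) in median LP and by 1.51 (SE 0.28, adjusted p = 0.000379) in early LP, and the first call ended without median LP 1, HPC 1 or HPC 3 (adjusted p 0.0558 to 0.119). Ifi35 stood at 24.9 to 26.5 CPM in median LP, 23.5 to 25 in early LP and 24.5 to 27.2 in HPC. Xaf1, an antagonist of the inhibitor of apoptosis Xiap, stood at 3.93 to 4.26, 3.29 to 3.96 and 3.86 to 5.81 CPM in the same order.

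**Figure D3:**
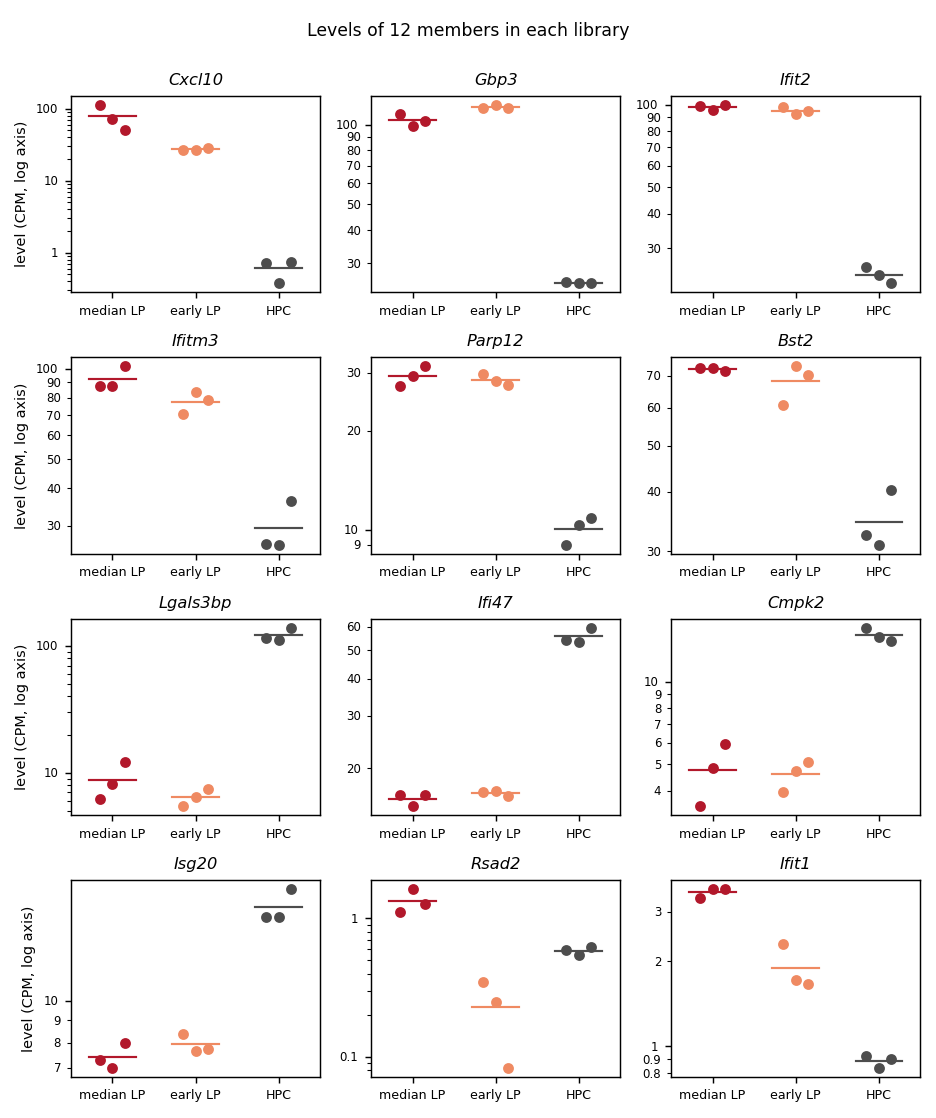
Level in CPM (vertical log axes, a separate one per panel) of 12 members in each library of median LP, early LP and HPC. Points are libraries and lines are group means. Cxcl10 reaches 115 CPM in median LP 1, against at most 0.741 in HPC, and Lgals3bp runs the other way, at 139 CPM in HPC 3.

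Between the phases few members were called. In median against early LP, Cxcl10, Rsad2 and Ifit1 were higher and none was lower, where 2.48% of all genes were called, 1.48% higher and 0.997% lower. An unadjusted p under 0.05 was reached by 16 members in the higher and 1 in the lower direction, and by 8.44% and 8.05% of all genes. The change was 1.54 (SE 0.23, adjusted p = 0.00504) for Cxcl10 in edgeR, with adjusted p from 0.000534 to 0.0622 over its alternatives. For Rsad2 it was 2.54 (SE 0.36, adjusted p = 0.00442), with adjusted p from 9.56e-05 to 0.0326. For Ifit1 it was 0.89 (SE 0.18, adjusted p = 0.0243), with adjusted p from 0.0122 to 0.120, and the call ended without median LP 1, median LP 2, median LP 3, early LP 2 or early LP 3. All 3 hold the ISRE core printed above, as do 16 of the 32 members with a promoter entry, and a link of the core to the phases was not tested.

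Most fitted changes between the phases were small and above 0. The fitted change was above 0 for 33 of 40 members and below 0 for 7, with a median log2 change of 0.18, against 0.00 for all genes. Groups did not overlap for 13 members in the higher and 1, Gbp3, in the lower direction, where 12.4% and 13.7% of all genes did so, 26.1% together. The 13 include Ifnar2, Ddx58, Ifitm3, Parp9, Parp14, Trim25, Mx2 and Oas2. In each group the order of the libraries among the members departed from that of all genes. HPC 1 was the highest of its group for 20 of 40 members (50%, all genes 28.3%), and HPC 2 was the lowest for 20 (50%, all genes 32.1%). Early LP 3 was the lowest of its group for 19 (47.5%, all genes 31.5%). Median LP 3 was the highest of its group for 27 of 40 members (67.5%, all genes 34.3%), and median LP 1 was the lowest for 24 (60%, all genes 38.6%). Both held for 19 members, among them Oas2, Oas3, Oasl2, Lgals3bp, Cmpk2 and Rtp4, or 47.5% against 22.7% of all genes. Cxcl10 had the reverse order, highest in median LP 1 and lowest in median LP 3.

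The same order was seen in a second list. Of 53 other tested interferon-induced genes that are not members, 35 (66.0%) were highest in median LP 3. The coefficient of variation between libraries exceeded 25% for 11 of 40 members in median LP, 3 in early LP and 5 in HPC, against 11.8, 11.3 and 12% of all genes. The summed level of the monocyte marker list was 7334, 7080 and 7783 CPM in median LP 1 to 3, that of the dendritic list 45.6, 46.3 and 42.7 CPM, and the part of either in the order of the members was not tested. Without median LP 3 the count of members called higher between the phases was 2, and without median LP 1 it was 4.

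**Figure D4:**
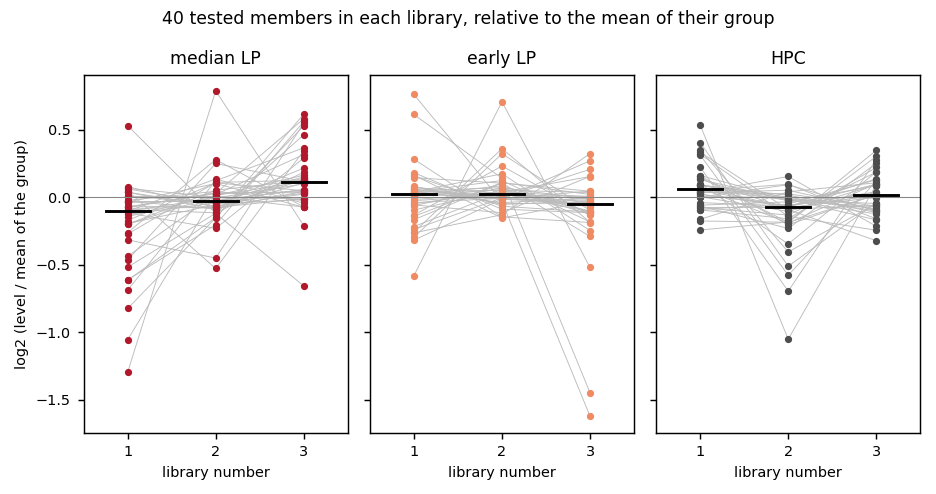
Log2 of the level of each of 40 tested members over the mean of its group (vertical axis) in libraries 1 to 3 of median LP, early LP and HPC. Points are members, grey lines join a member and black bars are medians. Most points of median LP 3 lie above 0, where 27 of 40 members have their highest library of the group.

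The calls can be set beside the ISRE core. Of 15 tested members with the core, 10 were higher, 1 lower and 4 not called in median LP, and 10, 3 and 2 in early LP. Of 16 tested members whose window lacks the core, 4 were higher, 8 lower and 4 not called in median LP, and 4, 9 and 3 in early LP. The median log2 change with the core was 0.73 in median LP and 0.42 in early LP, and without it -0.17 and -0.33. The same counts over all tested genes follow, and no test was made of either difference. Of 376 tested genes with the core, 151 were higher and 132 lower in median LP (median 0.02), and of 9885 without it 3429 were higher and 3828 lower (median -0.05). In early LP 144 and 138 of the 376 were higher and lower (median 0.01), and 3381 and 3843 of the 9885 (median -0.05). No match in a window says only that these letters are not in it.

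**Figure D5:**
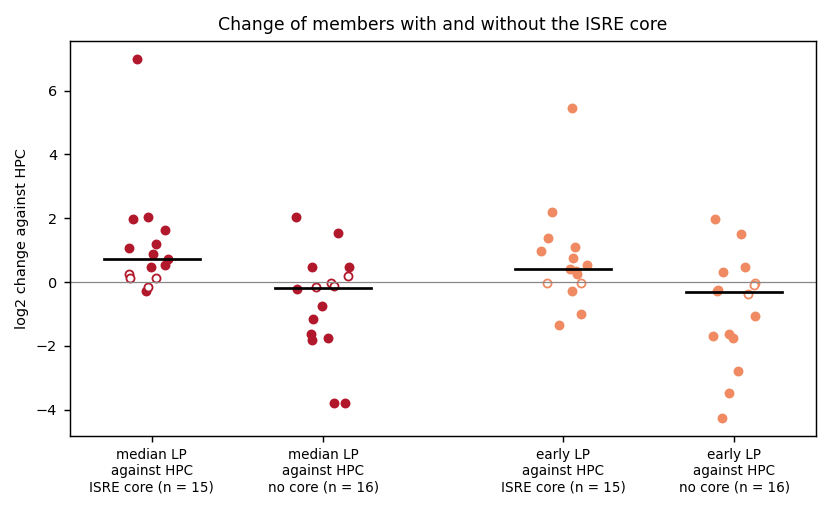
Log2 change against HPC (vertical axis) of members with and without the ISRE core in their promoter window, in median LP (left pair) and early LP (right pair). Points are members, open where not called, and bars are medians. With the core the medians are 0.73 and 0.42, and without it -0.17 and -0.33.

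Beyond the members, 53 tested genes of a further list of interferon-induced genes had 27 higher and 15 lower in median LP, and 21 and 16 in early LP. Of all genes 36.0% and 37.7% were higher and lower in median LP, and 35.3% and 37.9% in early LP. Slfn4, a Schlafen protein of myeloid cells, stood at 858 ± 72.5 CPM in median LP, 611 ± 40.3 in early LP and 31.7 ± 4.50 in HPC (SD, n = 3), a change of 4.76 (SE 0.12) and 4.27 (SE 0.12). Ifi30, a thiol reductase of lysosomes, changed by 2.77 (SE 0.10) and 2.67 (SE 0.10), and lies on chromosome 8. The nuclear body proteins Sp140, with 1.87 (SE 0.08) and 1.84 (SE 0.08), and Sp110, with 1.55 (SE 0.07) and 1.66 (SE 0.07), share a locus. Changes as large went the other way, in genes named after their values had been seen. Ifi203, a DNA-binding protein of a family of similar genes between which reads can be split, averaged 2.62 ± 0.377 CPM in median LP, 2.51 ± 0.780 in early LP and 36.2 ± 0.987 in HPC, log2 changes of -3.79 (SE 0.17) and -3.85 (SE 0.17). Ifi204, of the same family, had log2 changes of -3.74 (SE 0.30) and -3.61 (SE 0.29).

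The cells compared also differed in their markers, with Cd34 high in HPC and near 0 in LP. The sum of 14 stem and multipotent progenitor markers was 244 to 261 CPM in median LP and 262 CPM in early LP, against 1059 to 1204 in HPC. Kit alone gave 236.8 to 252.8 CPM of it in median LP and 249.9 to 251.6 in early LP, against 413.1 to 459.3 in HPC. Of the 14 markers 13 were lower in median LP and 14 in early LP, where 37.7% and 37.9% of all genes were lower. Cd34 stood at 1.19 to 1.80 CPM in median LP and 3.22 to 3.81 in early LP, against 249.8 to 309.8 in HPC. Among all genes, 36.0% were higher and 37.7% lower in median LP, and 35.3% and 37.9% in early LP. Of 12 tested promyelocyte and neutrophil markers, 6 were higher and 3 lower in median LP, and 6 and 2 in early LP. That list summed to 39470 to 41710 CPM in median LP and 43790 to 48500 in early LP, against 15910 to 19790 in HPC. Of 8 tested erythroid markers, 1 was higher and 7 lower in median LP, and 0 and 8 in early LP. The erythroid list summed to 140.6 to 213.6 CPM in median LP and 13.9 to 21.2 in early LP, against 3080 to 3519 in HPC. Of 11 tested monocyte and macrophage markers 7 were higher in each LP group, while 2 were lower in median LP and 4 in early LP, among them Csf1r and Cx3cr1 in both. The list summed to 7080 to 7783 CPM in median LP and 7730 to 8030 in early LP, against 742 to 915 in HPC, of which Ly6c2, also a marker of granulocyte precursors, gave 5656 to 6017, 6236 to 6556 and 449 to 558 CPM in the same order. Of 8 tested dendritic cell markers, 2 were higher and 5 lower in median LP and 1 and 6 in early LP, against those same shares of all genes. The dendritic list summed to 42.7 to 46.3 CPM in median LP and 43.0 to 49.0 in early LP, against 243.5 to 287.6 in HPC. Tcf4 gave 30.7 to 35.1, 34.7 to 40.2 and 46.1 to 51.7 CPM of it in the same order. Siglech, a marker of the plasmacytoid dendritic cells known for making interferon, stood at 0.662 to 1.05 CPM in median LP and 0.0435 to 0.0836 in early LP, against 0.251 to 0.713 in HPC, and was higher in median than in early LP, as Ccr9 of the same list was. Hba-a1, a globin of red cells, stood at 131 to 201 CPM in median LP and 2.71 to 5.69 in early LP, against 19.4 to 36.9 in HPC. The part of these cells in the changes of the members was not tested, and in bulk RNA fewer cells of a type and less RNA per cell cannot be told apart.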

How the data were processed

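The members and the lists set beside them were chosen with earlier results of these data known. RNA was prepared with Trizol and the Illumina TruSeq kit and sequenced on a HiSeq 2000, per the labels. Reads were aligned with TopHat2 2.0.6 to mm10, per the submitters' processing notes, and no source used here gives the quantifier, the annotation or the strand setting. The authors deposited, per transcript and library, estimated counts that are not whole and FPKM values. Dividing the deposited counts by 1 step per library gave whole fragments for 89.6 to 91.3% of low values (tolerance 0.05), so the deposited totals are rescaled depths. Counts were summed per gene symbol, rounded and tested with edgeR 4.0.16 in R 4.3.3 (TMM scaling, filter on low counts by group, quasi-likelihood test, 3 groups of 3 libraries in 1 fit, two-sided). Of 16537 genes 12837 were tested and 3700 were filtered out, with Benjamini-Hochberg adjustment over all tested genes and a threshold of 0.05. The script recovered changes planted in simulated counts. CPM levels are TMM-scaled and errors are SDs over 3 libraries. Per-library values were given for Ifnar1, Ifnar2 and Stat2, for the 8 largest increases and 8 largest decreases among members of 5 CPM or more where higher, and for members called between median and early LP. Alternatives were DESeq2 1.42.0, limma 3.58.1 on log2 FPKM, other scalings and filters, a replicate block and each library left out. Same-numbered libraries did not deviate together, so the block is no pairing. Gene coordinates and promoters are RefSeq's, GRCm38.p6. A gene of the signalling path is not reported here.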

Additional observations from a re-analysis of the deposited data

Results flagged for a closer look

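For 3 members the LP groups differed in their change against HPC, by the edgeR test of the difference between median and early LP. The difference was 1.54 for Cxcl10, 2.54 for Rsad2 and 0.89 for Ifit1 on the log2 scale, each higher in 3 of 3 median LP libraries than in any early LP library. Rsad2 rests on 98 fragments in median LP and 16 in early LP over 3 libraries each. Hba-a1, Siglech and Ccr9 were also higher in median than in early LP. Siglech and Ccr9 were the 2 called higher among 8 tested dendritic cell markers, and 0 were lower. The whole dendritic list summed to 42.7 to 46.3 CPM in median LP and 43.0 to 49.0 in early LP. Tcf4 alone gave 30.7 to 35.1 and 34.7 to 40.2 CPM of these sums. The part of these markers in the differences of the members was not tested.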

How the results depend on the processing

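No call of a member reversed under any of the 20 alternatives. Directions of uncalled changes did. By library totals, Eif2ak2 and Igtp in median LP gave -0.015 and -0.0034, and Parp9 in early LP gave -0.148, as it gave -0.0376 by upper quartile scaling, -0.0123 on log2(FPKM + 0.1) and -0.0109 on log2(FPKM + 1). With each library left out, the median LP change ran from -0.0522 to 0.0394 for Ifi35, from -0.528 to 0.0765 for Oas3 and from -0.229 to 0.0694 for Xaf1. The early LP change ran from -0.0675 to 0.0475 for Adar, from -0.110 to 0.0768 for Eif2ak2, from -0.0516 to 0.0375 for Igtp and from -0.0011 to 0.0667 for Parp9. By library totals 10 members were higher in early LP.

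Between median and early LP the counts moved most. All genes higher and lower numbered 313 and 245 by DESeq2, and 362 and 243 with the HPC libraries left out of the fit. On FPKM 106 were higher with the pseudocount of 0.1 and 125 with that of 1. They numbered 65 and 68 with 2-fold required, and ran from 66 to 391 and from 39 to 296 over the libraries left out. Members called higher numbered 6 by DESeq2, 5 with the 2 groups alone and 2 to 5 over the libraries left out. With 2-fold required, 2082 and 1859 genes were higher and lower in median LP and 1999 and 1829 in early LP, and 9 and 6 members were higher. Cxcl10 missed the threshold between the phases on log2(FPKM + 0.1) (limma, adjusted p = 0.0622). Library numbers gave no pairing, with correlations of -0.213 to 0.115 in 9 same-numbered pairs. With the replicate block 62 genes were lower between the phases, and Ifit1 missed the threshold (edgeR, adjusted p = 0.0635). The causes were not tested. Few fragments limit Ifit3, Zbp1, Rsad2, Mx1, Mx2, Oasl1, Usp18 and Ifi44.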
